A study of Mus musculus with 4 samples.

Results

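The collagen genes of mouse inner ear cultures are described here: every gene whose symbol is Col, a number, a and a second number. The files list 44 such genes among 24346 gene symbols, and membership was decided by the symbol. RNA sequencing gave 2 libraries of primary cultured vestibular cells, from the part of the inner ear that senses head movement and gravity, and 2 libraries of primary cultured cochlear cells, from the part that senses sound. The cultures were labelled as mouse inner ear with no treatment named, and the sources used here do not give strain, age, time in culture or how the cells were taken. Levels are in FPKM, a fragment count corrected for the length of the transcript and the size of the library. This allows only a rough comparison between genes. Values in pairs belong to libraries 1 and 2 of a group, in that order. The FPKM totals ran from 479380 to 519122 per library, and the number of fragments is unknown.

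Collagens are the main structural proteins of the extracellular matrix. Each molecule is a triple helix of chains in which glycine returns in a fixed rhythm, written Gly-X-Y, where X and Y stand for other residues. Fibrillar collagens (types I, II, III, V, XI, XXIV and XXVII) form the banded fibrils of connective tissue and cartilage, and type IV collagens form the sheet of basement membranes. FACIT collagens (fibril-associated collagens with interrupted triple helices) sit on the surface of fibrils, beaded collagens of type VI form microfibrils around cells, and transmembrane collagens are anchored in the plasma membrane. In the inner ear, types II, IX and XI are known from the tectorial membrane and the otic capsule, and type IV chains from the basement membranes of the cochlear duct. Inherited hearing loss follows changes in several of these genes, among them those of type IV in Alport syndrome and of types II, IX and XI in Stickler syndrome.

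The repeat that defines the family was read from the coding sequences of 43 of the 44 genes in GENCODE release M21. A run was counted where a glycine codon (GGN) began each triplet of codons for at least 5 triplets in a row. In the 11 fibrillar genes the longest run spanned 216 to 344 triplets, with a median of 338, and the gene held 2 to 3 runs in all. In the 9 basement membrane genes the longest run spanned 30 to 75 triplets and the coding sequence was broken into 11 to 27 runs. The 9 FACIT genes had a longest run of 32 to 113 triplets, which was 113 in Col9a1, Col9a2, Col9a3 and Col22a1. In the 4 transmembrane genes it was 37 to 55, in the 5 beaded genes read 37 to 87, and in the 5 genes outside these classes 23 to 60. The stretches below show the repeat in 1 gene of each of the named classes, and none is shown for the genes outside them. Each starts at the longest run of its gene except for Col4a1. There the stretch spans a break of 6 codons (codons 335 to 340) between runs of 19 and 12 triplets. Capitals mark the glycine codons that belong to a run.
Col1a2, fibrillar: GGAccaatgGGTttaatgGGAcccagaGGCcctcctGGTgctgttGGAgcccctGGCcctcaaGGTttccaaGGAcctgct
Col4a1, basement membrane: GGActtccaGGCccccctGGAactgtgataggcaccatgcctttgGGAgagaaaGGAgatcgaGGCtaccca
Col9a2, FACIT: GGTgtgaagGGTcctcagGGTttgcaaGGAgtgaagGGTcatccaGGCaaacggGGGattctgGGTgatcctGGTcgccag
Col6a1, beaded: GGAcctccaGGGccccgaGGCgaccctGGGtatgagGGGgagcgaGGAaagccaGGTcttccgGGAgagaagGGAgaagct
Col23a1, transmembrane: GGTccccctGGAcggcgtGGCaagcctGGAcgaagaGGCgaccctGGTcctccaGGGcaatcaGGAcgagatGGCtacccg

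**Figure D1:**
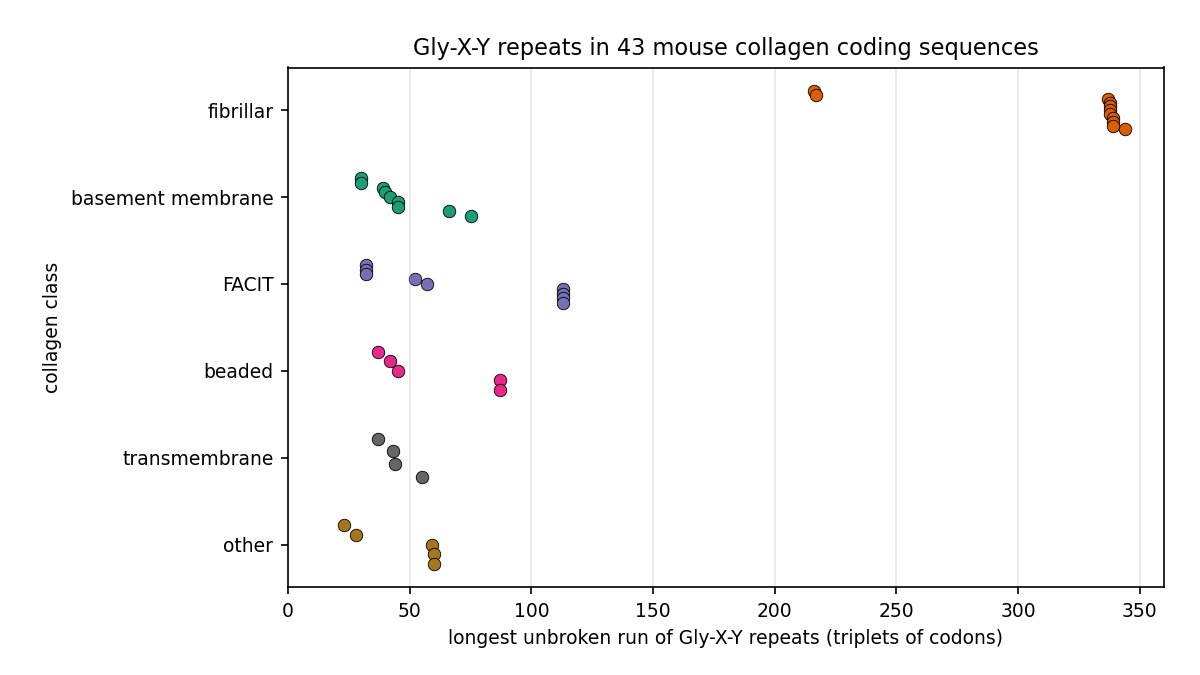
Longest unbroken run of Gly-X-Y repeats (x axis, in triplets of codons) in the coding sequence of 43 collagen genes, 1 point a gene, by class (y axis). The fibrillar genes lie at 216 to 344 triplets, to the right of all genes of the other classes, which reach at most 113.

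Collagen transcripts made up 0.833% and 2.36% of all FPKM in the vestibular libraries, against 0.381% and 0.339% in the cochlear libraries. The vestibular libraries averaged 1.60% ± 1.08 and the cochlear libraries 0.360% ± 0.0298 (SD, n = 2 each). The summed level was 4324 and 12128 FPKM in the vestibular libraries, against 1968 and 1625 FPKM in the cochlear libraries. Both vestibular libraries thus lay above both cochlear libraries, and the vestibular libraries differed from each other more than vestibular library 1 did from the cochlear ones. In bulk cultures, fewer cells of a type and less RNA per cell cannot be told apart.

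The make-up of the family also differed between libraries. Types I, III and V, the fibrils of general connective tissue, held 49.3% and 36% of collagen FPKM in the vestibular libraries, against 48.3% and 25.5% in the cochlear libraries. Types II, IX and XI, which together build cartilage fibrils, held 18.4% and 40.4% in the vestibular libraries, against 11.5% and 14.8% in the cochlear libraries. Type IV held 6.09% and 6.08% in the vestibular libraries, against 15% and 22.6% in the cochlear libraries. The groups overlapped in the share of types I, III and V, and did not overlap in the other shares just named. Type VIII held 15.6% and 14.0% in the vestibular libraries and 12.4% and 20.3% in the cochlear libraries, where the groups overlapped.

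**Figure D2:**
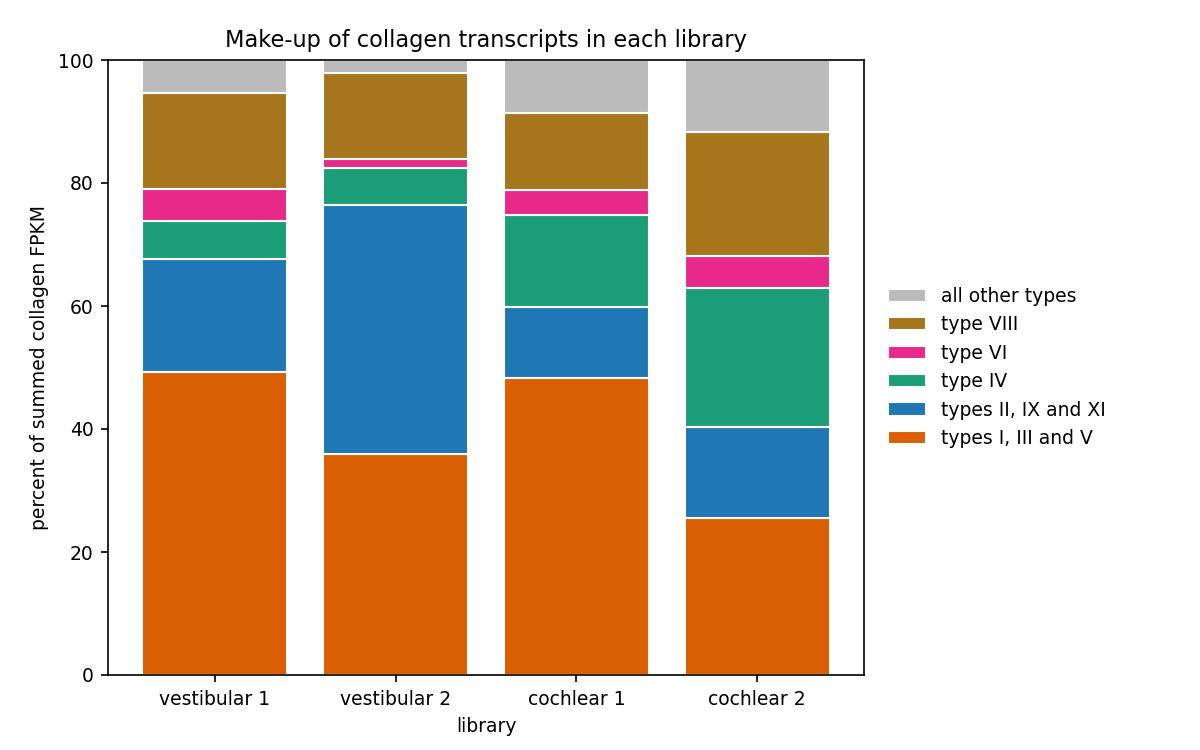
Share of summed collagen FPKM (y axis, percent) held by collagen types in each library (x axis), as stacked bars that reach 100. Type IV takes 6.09% and 6.08% in the vestibular bars against 15% and 22.6% in the cochlear bars, and types II, IX and XI take 40.4% in vestibular library 2.

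Of the 44 collagen genes, 34 had a mean of at least 1 FPKM over the 4 libraries and were tested. Of these, 2 reached that mean in the cochlear group only (Col7a1 and Col20a1). Just inside the limit, Col20a1 averaged 1.37 and Col7a1 1.10 FPKM over the 4 libraries, and just outside it Col10a1 averaged 0.664 and Col28a1 0.427. The groups were compared with limma on log2(FPKM + 1) over all 13200 genes that reached the limit, with Benjamini-Hochberg adjustment and a threshold of 0.05. No collagen gene passed (0 of 34, adjusted p from 0.106 to 0.796), where 0.0303% of all genes tested did. At an unadjusted p under 0.05 there were 17 collagen genes, 13 of them higher and 4 lower in the vestibular libraries, against 18.2% of all genes tested in either direction, 7.61% higher and 10.6% lower. Both vestibular libraries exceeded both cochlear ones in 19 of the 34 genes, against 26.9% of all genes tested. They lay below both in 6, against 28.4%, and the groups overlapped in 9. Col20a1, which reached the limit through the cochlear group only, is among the 4 lower genes and these 6. The median log2 difference, vestibular minus cochlear, was 1.24 over the 34 collagen genes and 0.01 over all genes tested. Without vestibular library 2 this median was 0.76, and without cochlear library 2 the count at an unadjusted p under 0.05 was 7. A 2-sided exact permutation test of 2 libraries against 2 cannot give a p under 0.333. A smaller limma p rests on the assumption of normally distributed log2 values. In limma the variance of a gene is also partly drawn from all genes (prior degrees of freedom 1.71).

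**Figure D3:**
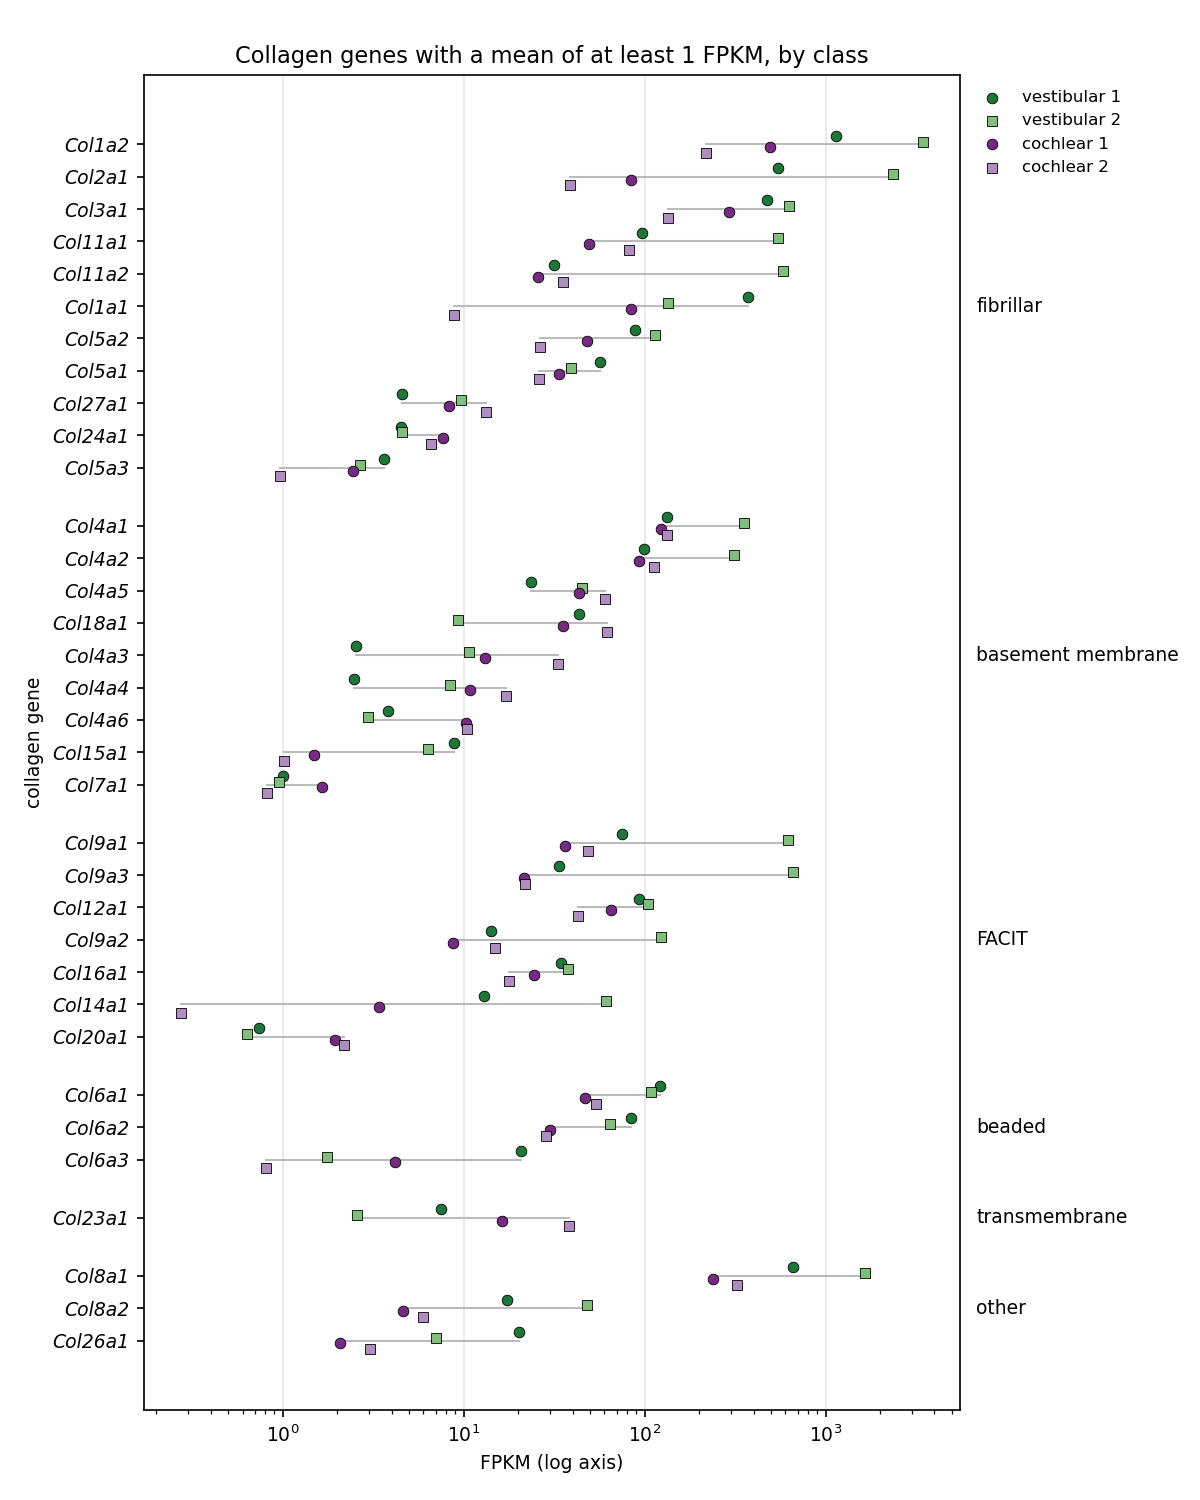
Level of the 34 collagen genes tested (x axis, FPKM on a log axis) in each of the 4 libraries, 1 row a gene (y axis), grouped by class. Within a row the points are set slightly apart in height, vestibular above cochlear, and the grey line spans the lowest to the highest library. Col1a2 spans 218 to 3452 FPKM, and Col2a1, Col9a3 and Col11a2 show vestibular library 2 far to the right of the others.

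The chains of type I collagen, the most abundant collagen of bone, skin and tendon, are encoded by Col1a1 and Col1a2. Col1a2 had 1140 and 3452 FPKM in the vestibular libraries, against 492 and 218 FPKM in the cochlear libraries. Col1a1 had 371 and 134 FPKM in the vestibular libraries, against 84.2 and 8.86 FPKM in the cochlear libraries. Neither gene overlapped between groups, and the libraries of a group differed in opposite ways for the pair in the vestibular cultures: Col1a2 was higher in library 2 and Col1a1 in library 1. The log2 difference was 2.59 (SE 0.74, limma adjusted p 0.232) for Col1a2 and 2.95 (SE 1.26, limma adjusted p 0.328) for Col1a1, which was at 1.40 without cochlear library 2 and 4.51 without cochlear library 1. Col1a2 lies on chromosome 6 at 4504814 to 4541544 and Col1a1 on chromosome 11 at 94936224 to 94953042 (mm10), both on the plus strand.

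Col3a1, whose type III fibrils accompany type I in soft tissue and vessel walls, had 473 and 624 FPKM in the vestibular libraries, against 291 and 134 FPKM in the cochlear libraries (log2 difference 1.45, SE 0.45, limma adjusted p 0.245, and 0.90 without cochlear library 2). Type V collagen starts type I fibrils and sets their width. Its gene Col5a2 had 88.4 and 115 FPKM in the vestibular libraries, against 48.1 and 26.3 FPKM in the cochlear libraries, with a log2 difference of 1.48 (SE 0.35, limma adjusted p 0.204). Col5a1 stood at 56.6 and 39.0 against 33.7 and 26 FPKM, and Col5a3 at 3.63 and 2.67 against 2.43 and 0.967 FPKM. All 6 genes of types I, III and V had both vestibular libraries above both cochlear ones, against 26.9% of all genes tested. Cochlear library 2 was the lowest of the 4 libraries in each, which was not counted over all genes. Col3a1 and Col5a2 are neighbours on chromosome 1, on opposite strands with a gap of 24614 bases between them.

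Type II collagen is the main fibril of cartilage, where chains of type XI lie within its fibrils and type IX coats their surface. Col2a1 had 543 and 2365 FPKM in the vestibular libraries, against 83.9 and 38.5 FPKM in the cochlear libraries. The groups did not overlap, and its log2 difference of 4.29 (SE 0.88, limma adjusted p 0.179) was the largest of the 34 collagen genes tested. Col2a1 lies on chromosome 15 at 97975602 to 98004695, on the minus strand.

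The other chains of this fibril had their highest level in vestibular library 2. Col11a1 had 96.6 and 546 FPKM in the vestibular libraries, against 49.5 and 81.6 FPKM in the cochlear libraries. Col11a2, a gene of human hereditary deafness, had 31.4 and 580 FPKM in the vestibular libraries, against 25.8 and 35.3 FPKM in the cochlear libraries. In Col11a2 the groups overlapped, since vestibular library 1 lay between the cochlear libraries. Of the type IX genes, Col9a1 had 74.8 and 621 FPKM in the vestibular libraries, against 36.4 and 48.7 FPKM in the cochlear libraries. Col9a3 had 33.7 and 663 FPKM in the vestibular libraries, against 21.6 and 21.9 FPKM in the cochlear libraries. Col9a2 had 14.2 and 124 FPKM in the vestibular libraries, against 8.76 and 14.9 FPKM in the cochlear libraries. The groups overlapped in Col9a2, and did not in Col9a1 and Col9a3. Vestibular library 2 held between 5.65 and 19.6 times the level of vestibular library 1 in these 5 genes, against 4.35 times in Col2a1. Their log2 differences ran from 1.80 to 2.74 (limma adjusted p 0.367 to 0.502). Without vestibular library 2 they were 0.06 for Col11a2, 0.28 for Col9a2, 0.60 for Col11a1, 0.61 for Col9a3 and 0.82 for Col9a1, while Col2a1 was at 3.23. Without vestibular library 1 the 5 differences ran from 3.08 to 4.87. Col9a3 shares 234 bases with Tcfl5 on the other strand, and Tcfl5 had 1.57 and 11.6 FPKM in the vestibular libraries, beside 2.22 and 1.40 FPKM in the cochlear libraries. The sources used here do not say whether the counting used strand.

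Col11a1 and Col11a2 encode partner chains, stand on different chromosomes and were both highest in vestibular library 2, so the 250 bases before each start are shown from the RefSeq promoter table (GRCm38.p6), which held 35 of the 44 genes in 38 windows. Col1a1, Col2a1, Col4a3, Col5a2, Col9a3, Col12a1, Col14a1, Col22a1 and Col26a1 had no entry. Both strands were searched for the TATA box TATAAA, the CCAAT box, the GC box GGGCGG and the core ACAATG bound by SOX factors, and capitals mark the matches, none of which share bases in the windows printed. Of the 32851 windows in the table, 12.4% held TATAAA, 33.8% CCAAT, 32.7% GGGCGG and 10.7% ACAATG. Among the 38 collagen windows the counts were 5, 13, 22 and 1. The Col11a1 window is chr3:114030290-114030539 (plus strand) and the Col11a2 window chr17:34038888-34039137 (plus strand). Col11a1 has GGGCGG at 2 places and CCAAT once on the minus strand, and Col11a2 has TATAAA once and GGGCGG at 2 places on the minus strand.
Col11a1: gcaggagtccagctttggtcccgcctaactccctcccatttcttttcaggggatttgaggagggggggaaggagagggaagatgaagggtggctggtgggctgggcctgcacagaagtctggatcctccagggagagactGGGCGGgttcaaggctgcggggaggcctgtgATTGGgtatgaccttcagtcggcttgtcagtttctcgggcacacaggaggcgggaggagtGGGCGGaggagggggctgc
Col11a2: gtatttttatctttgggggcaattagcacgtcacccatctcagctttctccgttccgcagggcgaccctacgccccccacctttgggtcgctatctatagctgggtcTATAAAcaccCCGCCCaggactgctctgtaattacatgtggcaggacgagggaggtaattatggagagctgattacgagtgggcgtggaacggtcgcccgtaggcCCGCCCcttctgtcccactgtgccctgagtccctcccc

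The remaining fibrillar genes encode the minor types XXIV and XXVII, of which type XXVII is known from cartilage. Col24a1 had 4.52 and 4.57 FPKM in the vestibular libraries, against 7.65 and 6.60 FPKM in the cochlear libraries (log2 difference -0.55, SE 0.14, limma adjusted p 0.216). It was the only fibrillar gene with both vestibular libraries below both cochlear libraries, an order that 28.4% of all genes tested had. Col27a1 had 4.58 and 9.72 FPKM against 8.28 and 13.4 FPKM, and the groups overlapped. These genes are also the fibrillar ones with a shorter Gly-X-Y run, 216 triplets in Col24a1 and 217 in Col27a1. Over the 11 fibrillar genes the median log2 difference was 1.48, and 0.91 without vestibular library 2.

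Of the FACIT collagens outside type IX, Col12a1 and Col14a1 encode types XII and XIV, which bind type I fibrils in tendon, skin and other dense tissue. Col12a1 had 93.6 and 104 FPKM in the vestibular libraries, against 65.3 and 42.6 FPKM in the cochlear libraries. Col14a1 had 12.9 and 61.5 FPKM in the vestibular libraries, against 3.42 and 0.275 FPKM in the cochlear libraries, with a log2 difference of 3.64 (SE 1.04, limma adjusted p 0.232). Col16a1, whose product lies near fibrils and basement membranes, stood at 34.7 and 37.7 against 24.5 and 17.8 FPKM. In these 3 genes both vestibular libraries exceeded both cochlear ones, an order that 26.9% of all genes tested had. Col20a1 was the other way, at 0.736 and 0.639 FPKM in the vestibular libraries against 1.95 and 2.17 FPKM in the cochlear libraries. It was tested only because of its cochlear level, so its order is given as a description. The median log2 difference of the 7 FACIT genes tested was 1.80, and it was 3.32 without vestibular library 1 and 0.71 without vestibular library 2.

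Type IV collagen is built from 6 chains. Those of Col4a1 and Col4a2 are found in nearly all basement membranes, and those of Col4a3, Col4a4, Col4a5 and Col4a6 only in particular ones. Col4a1 had 132 and 356 FPKM in the vestibular libraries, against 124 and 133 FPKM in the cochlear libraries. Col4a2 had 98.7 and 314 FPKM in the vestibular libraries, against 93.1 and 113 FPKM in the cochlear libraries. The groups overlapped in both genes: vestibular library 1 lay between the cochlear libraries and vestibular library 2 above them. Without vestibular library 2 the log2 difference was 0.04 for Col4a1 and -0.05 for Col4a2, against 0.76 and 0.78 with it, and without vestibular library 1 they were 1.47 and 1.60.

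Of the other type IV genes, 3 had higher levels in both cochlear libraries. Col4a3 had 2.56 and 10.7 FPKM in the vestibular libraries, against 13.2 and 33.1 FPKM in the cochlear libraries. Col4a4 had 2.48 and 8.41 FPKM in the vestibular libraries, against 10.8 and 17.2 FPKM in the cochlear libraries. Col4a6 had 3.82 and 2.97 FPKM in the vestibular libraries, against 10.3 and 10.5 FPKM in the cochlear libraries. Both vestibular libraries were under both cochlear ones in these 3 genes, the only ones of the 9 basement membrane genes with that order. This is a share near the 28.4% of all genes tested. The log2 difference was -1.38 (SE 0.16, limma adjusted p 0.107) for Col4a6, -1.77 (SE 0.79, limma adjusted p 0.340) for Col4a3 and -1.35 (SE 0.59, limma adjusted p 0.331) for Col4a4. Without vestibular library 1 it was -0.92 for Col4a3 and -0.64 for Col4a4, without vestibular library 2 -2.07 for Col4a4, and without cochlear library 2 -1.14 for Col4a3. Col4a5, the gene most often changed in Alport syndrome, had 23.5 and 44.9 FPKM in the vestibular libraries and 43.5 and 60.8 FPKM in the cochlear libraries, and the groups overlapped. Summed over Col4a3 to Col4a6, these chains held 12.3% and 9.09% of type IV FPKM in the vestibular libraries, against 26.4% and 33.1% in the cochlear libraries. The vestibular libraries averaged 10.7% ± 2.26 and the cochlear libraries 29.7% ± 4.73 (SD, n = 2 each).

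The type IV genes lie head to head in pairs. The starts of Col4a1 and Col4a2 on chromosome 8 are 21 bases apart and the genes share 22 bases, those of Col4a3 and Col4a4 on chromosome 1 are 72 bases apart, and those of Col4a5 and Col4a6 on the X chromosome are 1309 bases apart. Within a library the FPKM ratio of Col4a1 to Col4a2 was 1.34 and 1.14 in the vestibular libraries and 1.33 and 1.18 in the cochlear libraries. Col4a3 stood at 1.03 and 1.27 times Col4a4 in the vestibular libraries and at 1.22 and 1.93 times in the cochlear libraries. Col4a5 stood at 6.15 and 15.1 times Col4a6 in the vestibular libraries and at 4.23 and 5.79 times in the cochlear libraries. Among these pairs, the one with the starts farthest apart had the widest spread of this ratio over the 4 libraries. The pairs also differed in level. Col4a6 stood at 2.97 to 10.5 FPKM, Col4a3 and Col4a4 at 2.48 to 33.1 FPKM, and Col4a1 and Col4a2 at 93.1 to 356 FPKM. A link of the spread to distance or level was not tested. Col4a6, the type IV gene with the smallest SE, has the window chrX:141474077-141474326 (minus strand) before its start. This window held GGGCGG once, on the plus strand opposite to the one printed, and none of the other motifs.
Col4a6: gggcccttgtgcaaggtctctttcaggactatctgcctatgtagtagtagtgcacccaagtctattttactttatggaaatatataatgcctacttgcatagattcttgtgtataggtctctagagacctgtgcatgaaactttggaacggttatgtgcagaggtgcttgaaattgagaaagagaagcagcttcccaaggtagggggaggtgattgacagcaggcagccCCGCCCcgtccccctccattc

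Of the remaining genes of the basement membrane zone, Col15a1 and Col18a1 encode related collagens with a triple helix broken many times, and the end of the Col18a1 product is released as endostatin. Col15a1 had 8.85 and 6.39 FPKM in the vestibular libraries, against 1.499 and 1.023 FPKM in the cochlear libraries (log2 difference 1.92, SE 0.24, limma adjusted p 0.112). Col18a1 had 43.6 and 9.30 FPKM in the vestibular libraries, against 35.5 and 62.2 FPKM in the cochlear libraries, and the groups overlapped. In Col18a1, vestibular library 1 lay between the cochlear libraries and vestibular library 2 under both, while in Col15a1 both vestibular libraries were above. Col18a1 shares 8825 bases with Slc19a1 of the other strand, which had 10.03 and 10.25 FPKM in the vestibular libraries, beside 6.85 and 6.12 FPKM in the cochlear libraries. Col7a1, the anchoring fibril gene of skin, stood at 1.002 and 0.953 against 1.64 and 0.823 FPKM, with overlap. The median log2 difference of the 9 basement membrane genes was -0.64, and it ran from -0.88 to -0.13 when single libraries were left out (-0.19 without vestibular library 1, -0.13 without vestibular library 2 and -0.42 without cochlear library 2).

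Type VI collagen forms beaded microfibrils from the chains of Col6a1, Col6a2 and a longer chain, usually that of Col6a3. Col6a1 had 121 and 108 FPKM in the vestibular libraries, against 46.7 and 53.8 FPKM in the cochlear libraries. Col6a2 had 83.9 and 64.6 FPKM in the vestibular libraries, against 29.96 and 28.69 FPKM in the cochlear libraries. The groups were well apart in both genes, with log2 differences of 1.18 (SE 0.13, limma adjusted p 0.106) for Col6a1 and 1.30 (SE 0.17, limma adjusted p 0.116) for Col6a2, and Col6a1 had the smallest adjusted p of the family. Leaving out 1 library at a time kept Col6a1 between 1.08 and 1.28 and Col6a2 between 1.11 and 1.49. Col6a3 had 20.7 and 1.77 FPKM in the vestibular libraries, beside 4.19 and 0.808 FPKM in the cochlear libraries, the groups overlapped, and its log2 difference of 1.34 was -0.15 without vestibular library 1. Col6a4, Col6a5 and Col6a6, which encode alternatives to the Col6a3 chain, were at most 0.395 FPKM in any library. Col6a1 and Col6a2 lie on the minus strand of chromosome 10 with 85161 bases between them.

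Type VIII collagen is a short-chain collagen that forms hexagonal networks, best known from the membrane under the corneal endothelium and from vessel walls. Col8a1 had 657 and 1655 FPKM in the vestibular libraries, against 240 and 324 FPKM in the cochlear libraries (log2 difference 1.90, SE 0.53, limma adjusted p 0.228, and 1.23 without vestibular library 2). It was the collagen gene with the highest level in cochlear library 2, and Col1a2 was the highest in the other 3 libraries. Its partner Col8a2 had 17.3 and 47.8 FPKM in the vestibular libraries, against 4.63 and 5.95 FPKM in the cochlear libraries (log2 difference 2.26, SE 0.54, limma adjusted p 0.204). Both genes kept the groups apart. Col8a1 exceeded Col8a2 37.9-fold and 34.6-fold in the vestibular libraries and 51.8-fold and 54.4-fold in the cochlear libraries. Col26a1 had 20.3 and 7.05 FPKM in the vestibular libraries, against 2.07 and 3.03 FPKM in the cochlear libraries. Col10a1, the marker gene of hypertrophic cartilage, had 0.0717 and 1.29 FPKM in the vestibular libraries, beside 1.23 and 0.0617 FPKM in the cochlear libraries, and was not tested.

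Among the transmembrane collagens, only Col23a1 was tested. It had 7.46 and 2.59 FPKM in the vestibular libraries, against 16.2 and 38.1 FPKM in the cochlear libraries, with a log2 difference of -2.23 (SE 0.64, limma adjusted p 0.232). This was the lowest log2 difference of the 34 collagen genes tested. Col13a1, known from the neuromuscular junction, Col17a1, the hemidesmosome collagen of surface epithelia, and Col25a1, needed for motor nerve growth into muscle, were at most 0.0637, 0.0361 and 0.757 FPKM in any library. The window before Col23a1, chr11:51289670-51289919 (plus strand), held GGGCGG once, on the minus strand, and none of the other motifs.
Col23a1: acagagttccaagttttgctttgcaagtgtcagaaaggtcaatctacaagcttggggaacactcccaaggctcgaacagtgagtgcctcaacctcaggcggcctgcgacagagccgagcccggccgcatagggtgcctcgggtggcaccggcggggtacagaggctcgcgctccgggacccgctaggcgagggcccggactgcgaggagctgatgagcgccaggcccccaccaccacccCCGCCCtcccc

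The 10 genes under the limit were Col6a4, Col6a5, Col6a6, Col10a1, Col13a1, Col17a1, Col19a1, Col22a1, Col25a1 and Col28a1. In 9 of them every library was under 1 FPKM, Col10a1 being the other with a maximum of 1.29. Of the 10, 4 were listed at 0 in at least 1 library. The FACIT genes Col19a1 and Col22a1 reached 0.237 and 0.213 FPKM, and Col28a1, a gene expressed around Schwann cells, reached 0.505 FPKM.

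Chains that share a trimer did not have equal FPKM. How far a ratio between 2 genes depends on the transcript annotation used for counting, which is unknown, was not tested. Col1a1 stood below Col1a2 in all 4 libraries, at 0.325 and 0.0388 times its level in the vestibular libraries, and at 0.171 and 0.0406 times in the cochlear libraries, although type I collagen holds more chains from Col1a1 than from Col1a2. Col6a3 stood at 0.170 and 0.0163 times the level of Col6a1 in the vestibular libraries and at 0.0898 and 0.0150 times in the cochlear libraries. Both ratios were lower in library 2 than in library 1 of either group, and neither separated the groups. Col11a1 stood at 3.08 and 0.942 times Col11a2 in the vestibular libraries and at 1.92 and 2.31 times in the cochlear libraries. Col9a1 stood at 2.22 and 0.937 times Col9a3 in the vestibular libraries and at 1.68 and 2.22 times in the cochlear libraries, so in both pairs vestibular library 2 had the chains nearest to equal. The ratio of Col6a1 to Col6a2 was 1.44 and 1.68 in the vestibular libraries and 1.56 and 1.88 in the cochlear libraries. Col2a1 stood at 0.477 and 0.685 times Col1a2 in the vestibular libraries, against 0.171 and 0.177 times in the cochlear libraries.

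**Figure D4:**
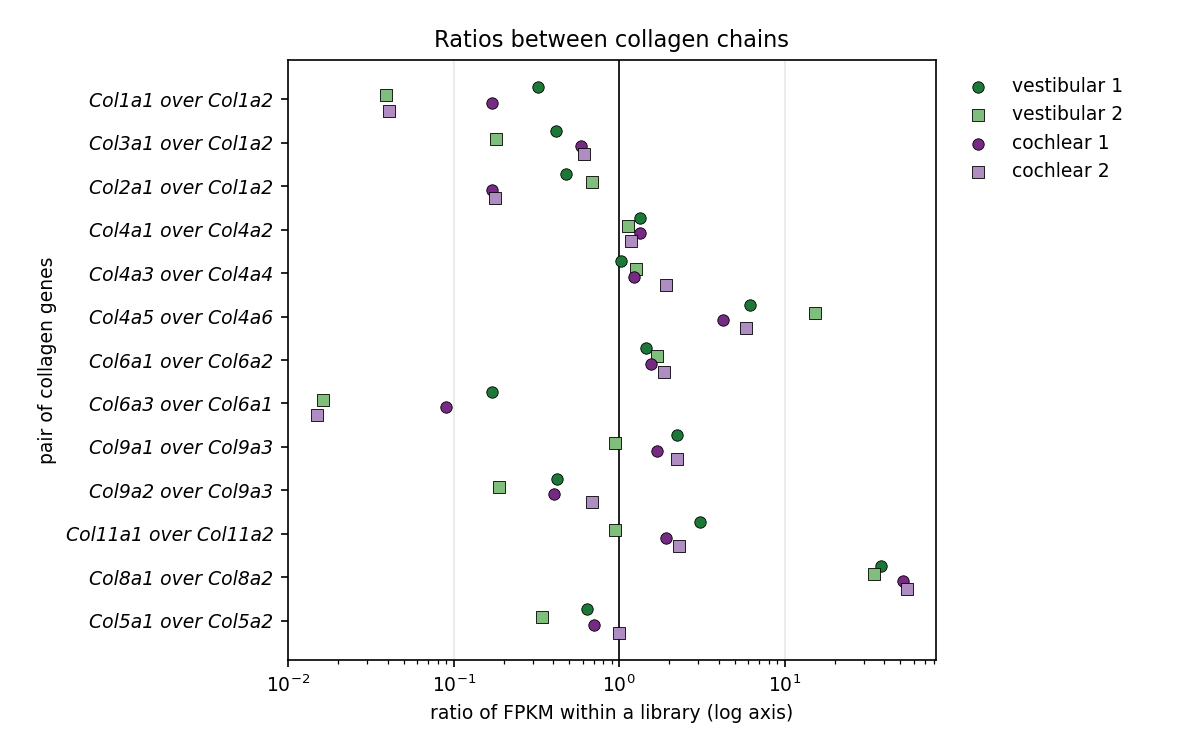
FPKM ratio between pairs of collagen genes within each library (x axis, log axis) by pair (y axis), with points set slightly apart in height, vestibular above cochlear, and a vertical line at a ratio of 1. The ratios of Col1a1 to Col1a2 and of Col6a3 to Col6a1 lie below 1 in all 4 libraries and lowest in library 2 of each group, while Col4a1 to Col4a2 stays between 1.14 and 1.34.

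**Figure D5:**
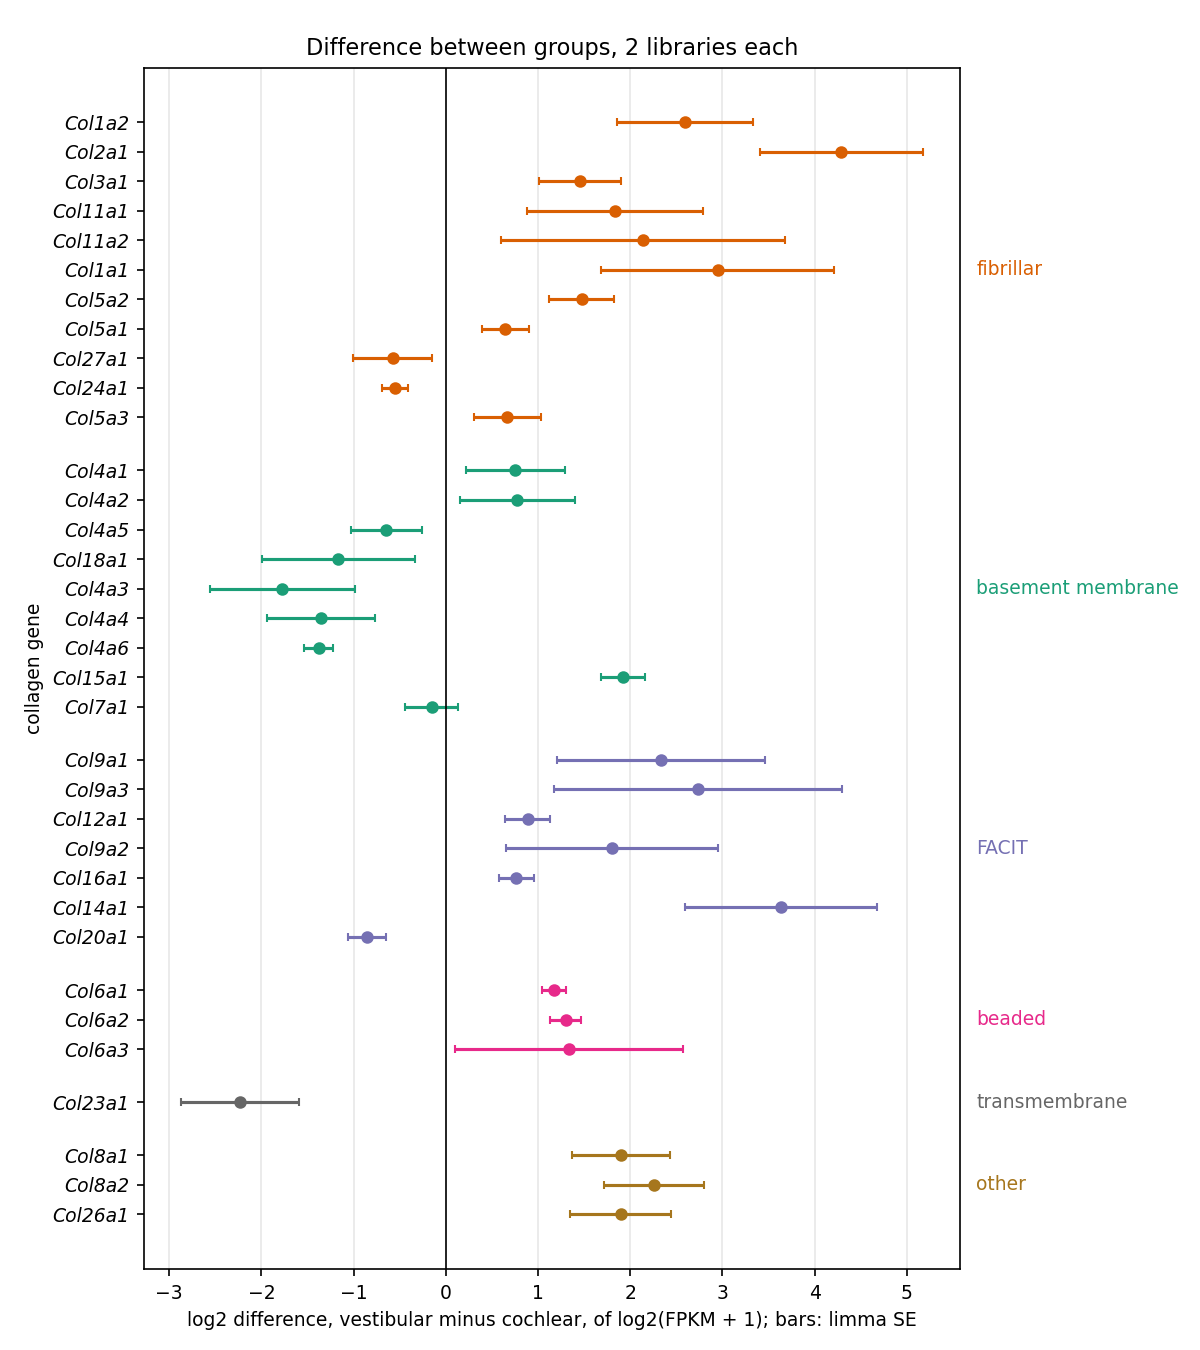
Log2 difference, vestibular minus cochlear, of log2(FPKM + 1) (x axis) for the 34 collagen genes tested (y axis), with the limma SE as bars and genes grouped by class. Points lie to the right of 0 for 24 genes and to the left for 10, and bars are narrow for Col6a1, Col6a2 and Col4a6 and wide for Col11a2 and Col9a3.

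Libraries of a group often stood apart. The vestibular libraries differed more than 2-fold in 20 of the 34 genes and the cochlear libraries in 9. Vestibular library 2 was the highest of the 4 libraries in 16 of the 34 genes and cochlear library 2 the lowest in 14. These counts were not made over all genes tested, so they cannot be called particular to collagen genes.

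The enzymes and chaperones that fold and modify procollagen were all tested (19 of 19 genes). None passed in limma, and at an unadjusted p under 0.05 there were 5 higher and 2 lower in the vestibular libraries (median log2 difference 0.39). Over all genes tested that share was 18.2%, with 7.61% higher and 10.6% lower. Serpinh1, the collagen chaperone HSP47, had 591 and 1009 FPKM in the vestibular libraries, against 341 and 371 FPKM in the cochlear libraries. The prolyl isomerases Fkbp10 and Fkbp14 stood at 80.4 and 110 against 53.5 and 52.5 FPKM, and at 27.9 and 50.4 against 17.6 and 15.7 FPKM. Prolyl hydroxylases lay on both sides: P4ha3 stood at 42.0 and 22.1 against 11.2 and 5.78 FPKM and P3h3 at 90.6 and 112 against 56.6 and 42.7 FPKM, while P4ha2 stood at 38.7 and 45.6 against 58.3 and 52.8 FPKM. Colgalt2, which puts galactose on collagen, was the farthest apart, at 4.11 and 5.92 FPKM in the vestibular libraries against 38.6 and 38.8 FPKM in the cochlear libraries (log2 difference -2.74, limma adjusted p 0.0665). Its relative Colgalt1 stood at 70.4 and 75.7 against 61.9 and 49.6 FPKM.

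Of 9 genes of collagen export, 8 were tested and none passed, with 3 higher and 1 lower at an unadjusted p under 0.05, against 7.61% and 10.6% of all genes (median log2 difference 0.31). The coat proteins Sec23a and Sec24d stood at 27.9 and 41.2 against 18.7 and 19.6 FPKM, and at 37.3 and 51.3 against 28.8 and 29.1 FPKM. Creb3l1, a transcription factor of type I collagen secretion in bone, had 15.5 and 19.6 FPKM in the vestibular libraries, against 10.6 and 7.56 FPKM in the cochlear libraries. Klhl12, a ubiquitin ligase adaptor for large transport carriers, had the opposite order, at 8.06 and 8.38 against 10.4 and 12.7 FPKM. Of 8 genes that cut or help cut propeptides, 5 were tested, none passed and 1 was higher at an unadjusted p under 0.05, a share near the 18.2% of all genes (median 0.61): the protease gene Bmp1 stood at 64.7 and 74.6 against 43.4 and 46.9 FPKM.

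All 5 lysyl oxidase genes, whose enzymes crosslink collagen, were tested, and none passed (2 higher and 1 lower at an unadjusted p under 0.05, against 18.2% of all genes, median 0.10). Loxl1 had 113 and 190 FPKM in the vestibular libraries, against 78.6 and 59.9 FPKM in the cochlear libraries. Loxl3 stood at 19.3 and 27.3 against 12.1 and 10.7 FPKM. Loxl4 had the opposite order, at 5.17 and 0.955 against 23.3 and 42.5 FPKM (log2 difference -3.23, limma adjusted p 0.186). Of 11 collagen receptors, 10 were tested and none passed (2 higher and 1 lower at an unadjusted p under 0.05, against 18.2% of all genes, median 0.55). Ddr2, a kinase receptor for fibrillar collagen, stood at 67.5 and 99.0 against 53.0 and 51.6 FPKM, and Mrc2, a receptor for collagen uptake, at 99.2 and 167 against 65.7 and 54.4 FPKM. Itga1, the integrin chain that prefers type IV, had 5.22 and 4.39 FPKM in the vestibular libraries, against 12.6 and 9.92 FPKM in the cochlear libraries.

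Of 7 collagen-degrading proteases, 4 were tested and none passed (2 higher at an unadjusted p under 0.05, against 7.61% of all genes, median 0.83). Ctsk, cathepsin K, had 59.1 and 114 FPKM in the vestibular libraries, against 41.7 and 30.2 FPKM in the cochlear libraries. Mmp2, gelatinase A, had 476 and 461 FPKM in the vestibular libraries, against 201 and 204 FPKM in the cochlear libraries (log2 difference 1.21, limma adjusted p 0.0914). Of 8 transcription factors of collagen genes, 6 were tested, none passed and 1 was higher at an unadjusted p under 0.05, a share near the 18.2% of all genes (median -0.34). Runx2, the bone regulator, stood at 5.30 and 5.79 against 3.90 and 3.30 FPKM. Sox9, which drives Col2a1 and the genes of types IX and XI in cartilage, overlapped between groups. It had 17.4 and 29.4 FPKM in the vestibular libraries, beside 28.7 and 29.5 FPKM in the cochlear libraries. A link of the levels of these factors to those of the collagen genes was not tested. Sox9 and Colgalt1 are named here after their values were seen. So are the single marker genes in the next paragraph that are not at or near 0.

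Marker genes of several cell types also stood apart between libraries. All 12 mesenchymal markers were tested, 9 of them with both vestibular libraries above both cochlear ones, against 26.9% of all genes, and their summed level was 2128 and 3081 FPKM in the vestibular libraries against 1185 and 959 FPKM in the cochlear libraries. Of 14 epithelial markers 13 were tested, 12 of them with both vestibular libraries below, against 28.4% of all genes, and the 14 summed to 1071 and 111 against 2087 and 2500 FPKM. The sums thus ran opposite to each other, with vestibular library 2 the highest in mesenchymal and the lowest in epithelial markers. The 12 macrophage markers summed to 8809 and 6712 FPKM in the vestibular libraries, against 6765 and 24.3 FPKM in the cochlear libraries. The 11 cartilage markers outside the collagens, 6 of them tested, with 2 above and 1 below, summed to 193 and 208 against 371 and 887 FPKM. Lect1 was the largest part in 3 of the libraries (123 and 33.7 FPKM in the vestibular libraries, against 327 and 853 FPKM in the cochlear libraries), and Ucma in vestibular library 2 (2.06 and 92.4 against 11.6 and 1.09 FPKM). Matn4 was above in both vestibular libraries, at 47.4 and 26.6 against 2.67 and 2.34 FPKM (log2 difference 3.38, limma adjusted p 0.0914), and Chad overlapped, at 0.580 and 17.3 against 0.255 and 0.687 FPKM. Among defining cartilage genes, Acan had 2.23 and 7.52 FPKM in the vestibular libraries, beside 0.387 and 0 FPKM in the cochlear libraries, while Matn1, Matn3, Comp and Hapln1 were at most 0.992 FPKM in any library. The 8 endothelial markers, 4 of them tested, summed to 22.6 and 49.1 against 117 and 297 FPKM. Most of each sum was Emcn, at 14.5 and 34.3 against 112 and 287 FPKM, while Cdh5 had the opposite order, at 0.915 and 10.7 against 0.293 and 0.0955 FPKM, with Pecam1, Tie1 and Cldn5 at most 0.155 FPKM. Bone markers (4 of 8 tested) summed to 195 and 120 against 38.1 and 113 FPKM. The members had opposite orders. Dmp1 had 171 and 80.6 FPKM in the vestibular libraries, against 15.01 and 15.02 FPKM in the cochlear libraries, whereas Alpl had 4.20 and 3.05 FPKM in the vestibular libraries, against 11.4 and 91.7 FPKM in the cochlear libraries, with Bglap at most 1.022 FPKM and Sost at 0. Among Schwann cell markers, Sox10 was lower in the vestibular libraries, at 37.7 and 15.5 against 108 and 100.4 FPKM, as was Mbp, at 15.5 and 6.20 against 36 and 35.7 FPKM, while Pmp22 was higher, at 121 and 167 against 97.5 and 48.1 FPKM. Smooth muscle and pericyte markers (4 of 7 tested) summed to 258 and 414 against 135 and 109 FPKM, with Myh11 at most 0.935 FPKM. Hair cell markers (3 of 8 tested) summed to 46.1 and 32.7 against 38.6 and 42.1 FPKM. Cib2 was the largest part, at 25.6 and 15.3 against 20.5 and 19.0 FPKM, and Myo7a stood at 13.4 and 8.93 against 9.83 and 5.81 FPKM. Both overlapped, while Espn was lower in the vestibular libraries, at 4.59 and 4.53 against 7.95 and 17.2 FPKM. Pou4f3 was at most 1.005 FPKM, Atoh1 at most 0.1001 FPKM and Otof up to 1.63 FPKM in vestibular library 2. The part of these cells in the collagen levels was not tested.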

How the data were processed

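RNA sequencing libraries of cultured vestibular (2) and cochlear (2) cells were analysed. RNA extraction used TRIzol and library preparation the TruSeq stranded mRNA kit, per the labels' protocols. Alignment and quantification drew on Cuffdiff 2.2.1, TopHat2 2.1.1, SAMtools 0.1.18 and Bowtie2 2.2.8 with the mm10 build, per the submitters' processing notes; the sources used here give no settings, strand use or annotation. The authors deposited FPKM values per gene symbol, per the file headers. Depth is unknown and counting intervals were not computed. The labels do not tie the samples to distinct cultures or animals, so p-values measure only the spread between these samples, which may be technical.

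Genes with a mean of at least 1 FPKM were kept (13200) and log2(FPKM + 1), which understates the change of low genes, was fitted with limma 3.58.1 in R 4.3.3 (eBayes with trend, prior degrees of freedom 1.71), adjusted over all genes kept. The script was tested on simulated data. Positions, overlaps and coding sequences came from GENCODE M21 on GRCm38 and promoters from RefSeq. Members, classes and lists were chosen with earlier results of these data known. In the pathway lists, genes at an unadjusted p under 0.05 are named, or the 2 most abundant where none had one. Alternatives changed the pseudocount, filter, scaling, variance trend, replicate block and each library. Some marker genes and the sum of their list are not reported here.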

Additional observations from a re-analysis of the deposited data

How the results depend on the processing

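The count of genes past the adjusted threshold over all genes was 4, 2 with no filter on low values, 0 with the label number as a replicate block and 0 to 0 without single libraries. The block was not taken as a pairing, since the labels give only a number and deviations of same-numbered libraries correlated at 0.043 across 13200 genes; with it, 19 collagen genes had an unadjusted p under 0.05, 13 of them among the 17 without it. That count was 17, 7 to 20 without single libraries and 15 to 17 under the other alternatives, and no collagen gene passed the adjusted threshold under any (lowest adjusted p 0.0801). With no filter the median log2 difference was 0.71 for all 44 collagen genes, 0.89 for FACIT, 0.72 for beaded and -0.068 for transmembrane genes, since genes near 0 enter it. Without single libraries the medians ran from 0.76 to 1.26 (collagen genes), 0.71 to 3.32 (FACIT), 0.91 to 1.90 (fibrillar), 1.10 to 1.49 (beaded) and 1.55 to 2.57 (Col8a1, Col8a2 and Col26a1). Keeping genes with a mean of at least 5 FPKM gave -1.17 for basement membrane genes, against -0.64, with Col7a1 and Col15a1 left out. The collagen share of FPKM differed by 1.24 percentage points between groups, 1.33 without short noncoding genes and 0.473 to 2.003 without single libraries. Of 438 log2 differences of single collagen genes, 435 kept their sign and their side of the threshold. Many of these fits reuse the same 4 libraries under another setting, and no sign turned in them. Those fits therefore say little about how stable a direction is. The sign turned in 3: Col4a2 ran from -0.054 to 1.60, Col6a3 from -0.15 to 2.82 and Col7a1 from -0.42 to 0.12 without single libraries, and the cause was not tested. No scaling moved the median of all genes by more than 0.1.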
